A study of Arabidopsis thaliana with 24 samples.

Results

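Chlorophyll biosynthesis is represented here by 9 Arabidopsis thaliana genes: HEMA1 (AT1G58290), GUN4 (AT3G59400), CHLI1 (AT4G18480), CHLH (AT5G13630), CRD1 (AT3G56940), PORA (AT5G54190), PORB (AT4G27440), PORC (AT1G03630) and CAO (AT1G44446). They were found by matching their loci to the locus column of the authors' normalized table, and each matched 1 probe set, which gives 9 of the 22746 probe sets tested. Chlorophyll is made in the chloroplast from glutamate by way of 5-aminolevulinic acid (ALA) and protoporphyrin, at which point the route to heme branches off. Magnesium chelatase starts the chlorophyll branch, a cyclase closes the extra ring, light-dependent oxidoreductases reduce protochlorophyllide, and chlorophyllide a oxygenase makes chlorophyll b. Plants hold this pathway under tight control because its free intermediates produce reactive oxygen in light.

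The study measured leaves of plants 6 weeks old, 4 h after infiltration with 1 µM flg22 (a flagellin peptide that triggers plant immunity) or with water alone, on Affymetrix ATH1 arrays. All plants were grown in short days. The 4 genotypes were the wild type Col-0, knockouts of the ethylene response factor gene ERF104 (erf104) and of the MAP kinase gene MPK6 (mpk6), and a line expressing ERF104 from 35S, a viral promoter active in most plant cells (35S::ERF104). Each genotype had 3 arrays per treatment, and 23 of the 24 arrays were used, since erf104 flg22 replicate 2 was left out. The labels used here state neither the mutant alleles nor how many plants, pools or transgenic lines stand behind an array. The p-values below therefore measure the spread between these arrays, which may be technical.

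The arrays shared 1 scale, a trimmed mean signal of about 500. Correlations between arrays of 1 group, on log2 signals of all probe sets, ran from 0.614 to 0.836 in Col-0 and from 0.845 to 0.93 among the other arrays used. Col-0 flg22 replicate 3 correlated more with mpk6 flg22 replicate 3 (0.926) than with its own group (up to 0.836). The array left out correlated with every other array at 0.25 or less. ERF104 signals were 21442 to 30769 in 35S::ERF104, 139 to 315 in mpk6, 61.2 to 284 in Col-0 and 8.26 to 51.5 in erf104. MPK6 signals were 263 to 975 in mpk6 and 724 to 2133 elsewhere. FRK1, a receptor-like kinase gene induced by flg22, read 37.2 to 1978 under water and 5334 to 14100 under flg22. All 4 measured leaf mesophyll markers (RBCS1A, RCA, CA1 and GAPA) were called present on every array. The flower markers AP3 and AG, the trichome and epidermis markers GL1 and GL2 and the root marker IRT1 were called absent in every group.

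Which of the 9 genes responded to flg22 was asked across all genotypes first. Transcripts of 8 of the 9 genes fell after flg22, by 1.53-fold (HEMA1) to 2.45-fold (PORC) on average over the 4 genotypes, and none rose. PORA, the ninth, was close to background. Among all 22746 probe sets 12.5% fell in the same test, and 9.16% rose. The median log2 change was -1.09 over the 9 genes and -0.15 over all probe sets. The 8 genes other than PORA were called present on every array, and among the 2085 probe sets called present on every array 30.5% fell, with a median change of -0.11. These are tests with limma on 23 arrays, adjusted over all probe sets, with a threshold of 0.05. Because whole leaves were measured, fewer cells of a type and less RNA per cell cannot be told apart. With every array centred on its median signal, 7 of the 9 fell and the median over the 9 was -0.94, while over all probe sets 2228 then rose and 1636 fell, against 2084 and 2832 on the deposited scale.

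**Figure D1:**
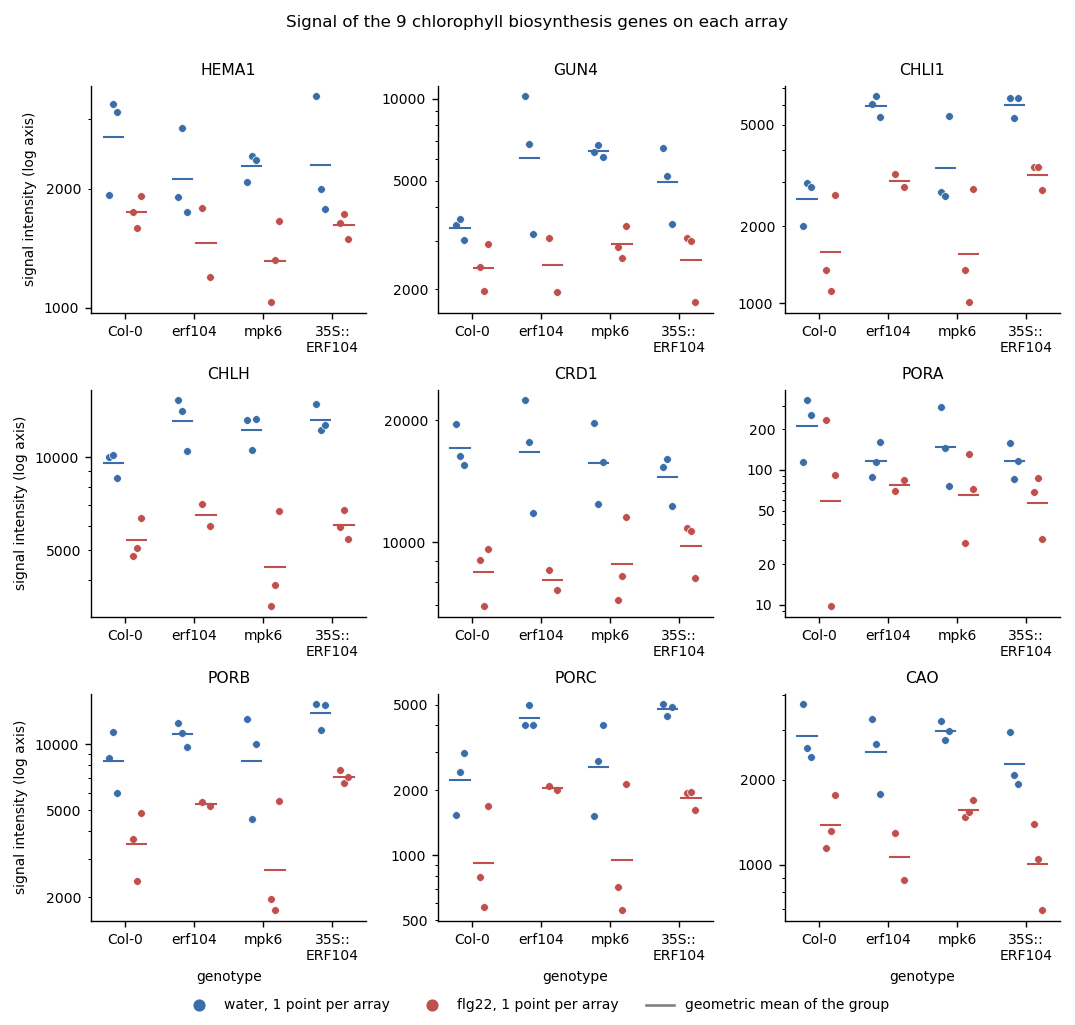
Signal intensity of the 9 genes (log axis, a separate range for each gene) on each of the 23 arrays used, by genotype; blue points are water arrays, red points flg22 arrays and bars the geometric mean of a group. In CHLH, CRD1 and CAO every red point lies below every blue point of the same panel, while PORA points overlap in 3 of the 4 genotypes.

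HEMA1 encodes glutamyl-tRNA reductase, the enzyme that commits glutamate to ALA. Values are given in the order of the replicate numbers here and below. HEMA1 signals in Col-0 were 1929, 3279 and 3129 under water and 1749.5, 1596 and 1913 under flg22, and in mpk6 they were 2075, 2425 and 2360.5 and 1033, 1324 and 1661. In erf104 HEMA1 read 1909, 2849.7 and 1742 under water and 1785 and 1199 under flg22, and in 35S::ERF104 it read 3426, 1997 and 1774 and 1639, 1730.2 and 1490.2. The flg22 arrays lay below the water arrays of the same genotype in Col-0, mpk6 and 35S::ERF104, by a small margin in Col-0, and overlapped them in erf104. HEMA1 had the smallest mean change of the 9, a log2 change of -0.62 ± 0.142 (SE; limma adjusted p = 0.00201). It was -0.47 and no longer passed with the arrays centred on their medians (adjusted p = 0.11).

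GUN4 encodes a porphyrin-binding protein that stimulates magnesium chelatase. GUN4 signals in Col-0 were 3426, 3608 and 3034 under water and 2401, 1965 and 2922 under flg22, and in mpk6 they were 6381, 6759.5 and 6124 and 2857, 2605 and 3414. In erf104 GUN4 read 10233, 6806 and 3190.3 under water and 3084 and 1949.8 under flg22, and in 35S::ERF104 it read 6623, 5219 and 3468 and 3093, 2999.8 and 1787. Within each of the 4 genotypes every flg22 array lay below every water array, which holds for 2.48% of all probe sets. The water arrays of erf104 spread widely, with replicate 1 high and replicate 3 low, while those of mpk6 were close together. The mean log2 change was -0.97 ± 0.168 (SE; limma adjusted p = 0.000107).

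CHLI1 and CHLH encode subunits of magnesium chelatase, CHLI1 an ATPase subunit and CHLH the subunit that binds the porphyrin. CHLI1 signals in Col-0 were 1999.7, 2960 and 2865 under water and 1346, 1115 and 2658 under flg22, and in mpk6 they were 2739, 2639.7 and 5407 and 1354, 1008 and 2815. In erf104 CHLI1 read 6028, 6484 and 5384 under water and 3196 and 2852 under flg22, and in 35S::ERF104 it read 6397, 5307 and 6357 and 3433, 3408 and 2771. The treatments separated cleanly in erf104 and 35S::ERF104. In Col-0 and mpk6 the flg22 array of replicate 3 was high and reached into the water range. The mean log2 change of CHLI1 was -0.93 ± 0.174 (SE; limma adjusted p = 0.000254), and over Col-0 and mpk6 alone it was -0.91 and did not pass (adjusted p = 0.0667).

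CHLH signals in Col-0 were 10011, 10183 and 8557 under water and 4791, 5084 and 6368 under flg22, and in mpk6 they were 13214, 10521 and 13300 and 3285, 3859 and 6681. In erf104 CHLH read 15320, 14131 and 10458 under water and 7034 and 5987 under flg22, and in 35S::ERF104 it read 14828, 12225 and 12757 and 5926, 6768 and 5416. All 11 flg22 arrays, whatever the genotype, lay below all 12 water arrays, which 1.11% of all probe sets did. The 2 lowest signals came from mpk6 under flg22. CHLH fell 2.17-fold on average, a log2 change of -1.12 ± 0.131 (SE), with the lowest adjusted p of the 9 genes (limma adjusted p = 4.63e-07).

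CRD1 encodes the catalytic subunit of the cyclase that forms the isocyclic ring of chlorophyll. CRD1 signals in Col-0 were 19508, 16317 and 15503 under water and 9035, 6965 and 9625 under flg22, and in mpk6 they were 19642, 12433 and 15797 and 7232, 8288 and 11519. In erf104 CRD1 read 22392, 17629 and 11802 under water and 8573 and 7636 under flg22, and in 35S::ERF104 it read 15291, 16055 and 12308 and 10828, 10644 and 8171. Here too no flg22 array reached any water array, but the gap was narrow: the highest flg22 signal was 11519 (mpk6) and the lowest water signal 11802 (erf104). The mean log2 change was -0.86 ± 0.14 (SE; limma adjusted p = 4.39e-05).

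PORA, PORB and PORC encode the light-dependent protochlorophyllide oxidoreductases, of which PORA is known mainly from dark-grown seedlings and PORB and PORC from green leaves. PORB signals in Col-0 were 8689, 11414 and 5970.1 under water and 3700.1, 2388 and 4838 under flg22, and in mpk6 they were 13013, 4555 and 10054 and 1977, 1746 and 5523. In erf104 PORB read 12471, 11240 and 9758 under water and 5449 and 5202 under flg22, and in 35S::ERF104 it read 15241, 11624 and 15020 and 7604, 6643 and 7096. The treatments overlapped in mpk6 alone, where water replicate 2 was low and flg22 replicate 3 high. PORB fell by 1.24 ± 0.195 (SE) on the log2 scale, or 2.36-fold (limma adjusted p = 3.09e-05).

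PORC signals in Col-0 were 1528, 2428 and 2979 under water and 789, 575 and 1690.1 under flg22, and in mpk6 they were 1527, 2728 and 4034 and 714, 554 and 2151. In erf104 PORC read 4029.6, 5001 and 4001 under water and 2093 and 2012 under flg22, and in 35S::ERF104 it read 5027, 4414 and 4877 and 1951, 1968 and 1613. In erf104 and 35S::ERF104 the treatments were well apart and the arrays of a group close together, whereas in Col-0 and mpk6 the flg22 array of replicate 3 rose above the lowest water array. PORC had the largest mean fall among the 8 genes that passed, 2.45-fold or a log2 change of -1.29 ± 0.211 (SE; limma adjusted p = 4.77e-05).

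PORA signals in Col-0 were 114, 329.8 and 256 under water and 233, 9.72 and 91.1 under flg22, and in mpk6 they were 294, 145 and 75.5 and 28.7, 131 and 72.4. In erf104 PORA read 88.3, 114 and 159.9 under water and 70.3 and 84.4 under flg22, and in 35S::ERF104 it read 157, 86.1 and 117 and 68.7, 86.8 and 30.8. PORA was called absent on every array except some water arrays of erf104 and 35S::ERF104, so no fold change is given. Its treatments overlapped in Col-0, mpk6 and 35S::ERF104. The limma adjusted p of its mean response was 0.0611, and it fell below the threshold without Col-0 flg22 replicate 1 (0.0119), Col-0 water replicate 1 (0.0404), mpk6 flg22 replicate 2 (0.043) or mpk6 water replicate 3 (0.0419), each left out alone.

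CAO encodes chlorophyllide a oxygenase, which makes the b form found in the light-harvesting antenna. CAO signals in Col-0 were 3707, 2589 and 2415 under water and 1148, 1317 and 1769 under flg22, and in mpk6 they were 3238, 2760.4 and 2982 and 1477, 1542 and 1693. In erf104 CAO read 3273, 2678 and 1781 under water and 1292 and 886 under flg22, and in 35S::ERF104 it read 2946, 2084 and 1933 and 1397, 1052 and 690.0. Every flg22 array lay below every water array, with the highest flg22 signal at 1769 (Col-0) and the lowest water signal at 1781 (erf104). CAO fell 2.13-fold, a mean log2 change of -1.09 ± 0.145 (SE; limma adjusted p = 2.71e-06).

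CHLH, CAO and CRD1 were thus the genes whose treatments did not overlap across genotypes, and with GUN4 they made 4 genes with no overlap inside any genotype. HEMA1 and PORB had no overlap in 3 genotypes, CHLI1 and PORC in 2, and PORA in 1. In a single genotype such a gap below water was common among all probe sets, at 22.2% in erf104, 19.7% in 35S::ERF104, 10.9% in Col-0 and 10.2% in mpk6. Ordered by their mean log2 signal, the 4 water groups stood above the 4 flg22 groups for 8 of the 9 genes. CHLI1 was the exception, with the Col-0 water mean (11.33 ± 0.31 SD, n = 3) below the flg22 means of 35S::ERF104 (11.64 ± 0.18, n = 3) and erf104 (11.56 ± 0.12, n = 2). Neighbouring groups in these orders mostly overlapped: of the 7 neighbouring pairs of each gene, 5 to 7 shared part of their range.

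The flg22 response was next tested within each genotype, on that genotype's own arrays. The changes of the 8 genes other than PORA were all negative in each genotype, and the medians over all 9 were -0.96 in 35S::ERF104, -1.05 in erf104, -1.13 in mpk6 and -1.01 in Col-0. The medians over all probe sets were, in the same order, -0.11, -0.08, 0.01 and -0.39. Over the 2085 called present on every array, as the 8 genes were, they were -0.15, -0.19, -0.12 and -0.03. How many genes passed differed: 7 in 35S::ERF104, 5 in erf104, 3 in mpk6 and 0 in Col-0 by limma. In the joint fit of 23 arrays, which takes 1 spread over all groups, they were 2, 2, 4 and 5. The Col-0 arrays correlated least within their groups, which a shared spread does not take into account. The share of all probe sets that passed in the joint fit is not given here, so its counts have no such background.

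In 35S::ERF104, GUN4, CHLI1, CHLH, CRD1, PORB, PORC and CAO fell, where 10.4% of all probe sets did so. Of the 2085 probe sets called present on every array, as these genes were, 627 fell. PORC fell furthest, with a log2 change of -1.38 ± 0.126 (SE; limma adjusted p = 8.44e-05), and CRD1 least (-0.56 ± 0.174, adjusted p = 0.0484). HEMA1 changed by -0.51 ± 0.213 and did not pass (adjusted p = 0.143). Leaving out any 1 of the 6 arrays left 5 to 7 genes, and the genes lost were GUN4, in 3 of these fits, and CRD1, in 5.

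In erf104, CHLI1, CHLH, PORB, PORC and CAO fell, beside 5.35% of all probe sets and 270 of the 2085 called present on every array. CAO fell by 1.22 ± 0.273 on the log2 scale (SE; limma adjusted p = 0.0183) and CHLH by 1.02 ± 0.283 (adjusted p = 0.0475). The change of GUN4 was larger, -1.30 ± 0.414, but did not pass (adjusted p = 0.0781). None of the 9 passed without flg22 replicate 3 or without water replicate 2, and 1 passed without flg22 replicate 1. Leaving out a flg22 array left 1 array in that group, which was then assumed to vary like the others. With the array left out of all other fits included, none passed, and centred on the array medians 3 did.

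In mpk6, GUN4, CHLH and CAO fell, beside 1.55% of all probe sets and 102 of the 2085 called present on every array. CHLH fell by 1.48 ± 0.326 on the log2 scale (SE; limma adjusted p = 0.0288), GUN4 by 1.13 ± 0.251 (adjusted p = 0.0301) and CAO by 0.93 ± 0.231 (adjusted p = 0.047). PORB had the largest change, -1.66 ± 0.468, with an adjusted p of 0.0784. CAO no longer passed when any 1 of the 6 arrays was left out. None passed without flg22 replicate 1, flg22 replicate 2 or water replicate 1, nor with the arrays centred on their medians, and 1 passed without water replicate 2. Without flg22 replicate 3, the array on which PORC, PORB and CHLI1 stood 1.77, 1.57 and 1.27 log2 units above the mean of the other replicates, 5 passed.

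In Col-0 no gene passed, and 0.277% of all probe sets fell by limma, as did 23 of the 2085 called present on every array. At an unadjusted p under 0.05, 5 of the 9 were lower (CHLH, CRD1, PORB, PORC and CAO), beside 6.46% of all probe sets. Their log2 changes were -0.83 ± 0.377 for CHLH, -1.01 ± 0.413 for CRD1, -1.26 ± 0.395 for PORB, -1.28 ± 0.427 for PORC and -1.04 ± 0.37 for CAO (SE). PORB had the lowest adjusted p (limma, 0.123). On flg22 replicate 3, the array that correlated best with mpk6, PORC and CHLI1 stood 1.33 and 1.12 log2 units above the mean of the other replicates. Without this array 1 gene passed, and 1 also passed without water replicate 3. The share of all probe sets that passed in these 2 fits is not given here. With the arrays centred on their medians the changes of the 8 genes other than PORA stayed negative, between -0.92 (PORC) and -0.12 (GUN4).

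**Figure D2:**
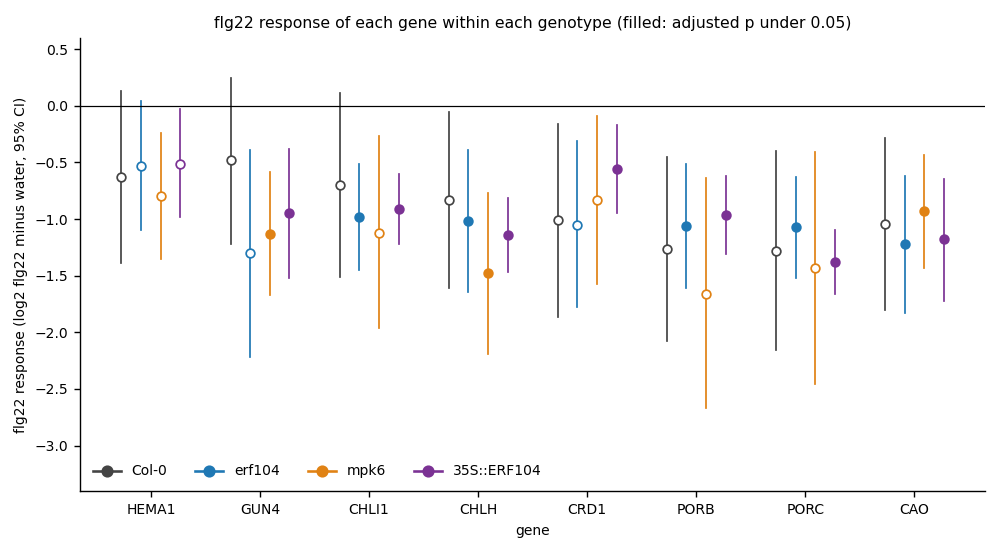
flg22 response of the 8 genes other than PORA (log2 of flg22 minus water, point) with its 95% confidence interval (line) in the 4 genotypes; filled points passed the adjusted threshold. All points lie below 0, and the filled ones are 7 in 35S::ERF104, 5 in erf104 and 3 in mpk6.

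Whether the response differed between genotypes was tested directly, as the response of a line minus that of Col-0. By limma 0 of the 9 genes and 0% of all probe sets passed for erf104, mpk6 or 35S::ERF104, and 0 of the 9 had an unadjusted p under 0.05, which 6.12%, 7.1% and 6.73% of all probe sets had in these lines. The intervals remain wide. The mpk6 response of CHLH was -0.65 relative to Col-0 (95% confidence interval -1.39 to 0.09), the erf104 response of GUN4 was -0.82 (-1.83 to 0.19) and the 35S::ERF104 response of CRD1 was 0.45 (-0.34 to 1.24). For CAO the 3 differences were -0.19 (-1.05 to 0.68), 0.11 (-0.71 to 0.93) and -0.14 (-0.96 to 0.67) in erf104, mpk6 and 35S::ERF104. For PORC they were 0.21 (-1.06 to 1.48), -0.15 (-1.35 to 1.05) and -0.09 (-1.29 to 1.1). These 3 comparisons share the Col-0 arrays. They take 1 spread over all groups, while the Col-0 arrays correlated least within their groups, so the intervals may be too narrow. The same holds for the levels compared with Col-0 below.

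Levels of the 9 genes were then compared between each line and Col-0 under the same treatment. Under water CHLI1 was higher than in Col-0 in erf104, by 1.21 ± 0.337 on the log2 scale (SE; limma adjusted p = 0.036), and in 35S::ERF104, by 1.22 ± 0.337 (adjusted p = 0.0405). Its 3 water signals were 5384 to 6484 in erf104, 5307 to 6397 in 35S::ERF104 and 2000 to 2960 in Col-0. No other of the 9 genes passed. Among all probe sets 2.75% were higher in erf104 and 2.34% in 35S::ERF104, and among those called present on every array 11.8% and 7.24%.

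PORC under water was 0.96 ± 0.41 higher in erf104 (limma adjusted p = 0.134) and 1.1 ± 0.41 higher in 35S::ERF104 (adjusted p = 0.0903), but did not pass. GUN4 was 0.86 ± 0.327 higher in erf104 (adjusted p = 0.101) and 0.94 ± 0.327 higher in mpk6 (adjusted p = 0.209). CAO, CRD1 and HEMA1 differed from Col-0 by at most 0.35 in size under water in the 3 lines. In mpk6 none of the 9 and 0.0044% of all probe sets passed by limma. At an unadjusted p under 0.05 it was 1 of the 9 genes and 15.7% of all probe sets.

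The CHLI1 calls under water did not hold under every setting. Both ended when all 24 arrays were fitted, when the variance trend was dropped and after quantile normalization, where the differences were 0.80 in erf104 (adjusted p = 0.158) and 0.88 in 35S::ERF104 (adjusted p = 0.132). CHLI1 no longer passed in erf104 without Col-0 water replicate 1 or any 1 of the erf104 water arrays. In 35S::ERF104 it no longer passed without Col-0 water replicate 1, Col-0 water replicate 3 or any 1 of the 35S::ERF104 water arrays.

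The whole distribution also differed there, with a median over all probe sets of -0.51 for erf104 and -0.48 for 35S::ERF104 against Col-0. Over the 2085 probe sets called present on every array, as CHLI1 was, the median went the other way. It was 0.29 for erf104 and 0.26 for 35S::ERF104. The median signal was 182 to 302 on the Col-0 water arrays, 145 to 157 on those of erf104 and 151 to 158 on those of 35S::ERF104. Centred on the array medians, CHLI1 was 1.88 higher in both lines, PORC (1.62 and 1.75) also passed in both, GUN4 passed in erf104 (1.52), and over all probe sets 2179 were higher and 400 lower in erf104 against 626 and 808 on the deposited scale. For 35S::ERF104 that split was 2122 higher and 517 lower when centred, against 532 and 800. After quantile normalization it was 507 and 208 in erf104 and 469 and 124 in 35S::ERF104. The summed signal of the 3 flower markers AP3, PI and AG was 245.9 to 939.4 on the Col-0 water arrays, 66.0 to 97.0 on those of erf104 and 58.7 to 91.0 on those of 35S::ERF104, although all 3 markers were called absent in these groups. The part of these differences in the CHLI1 result was not tested.

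**Figure D3:**
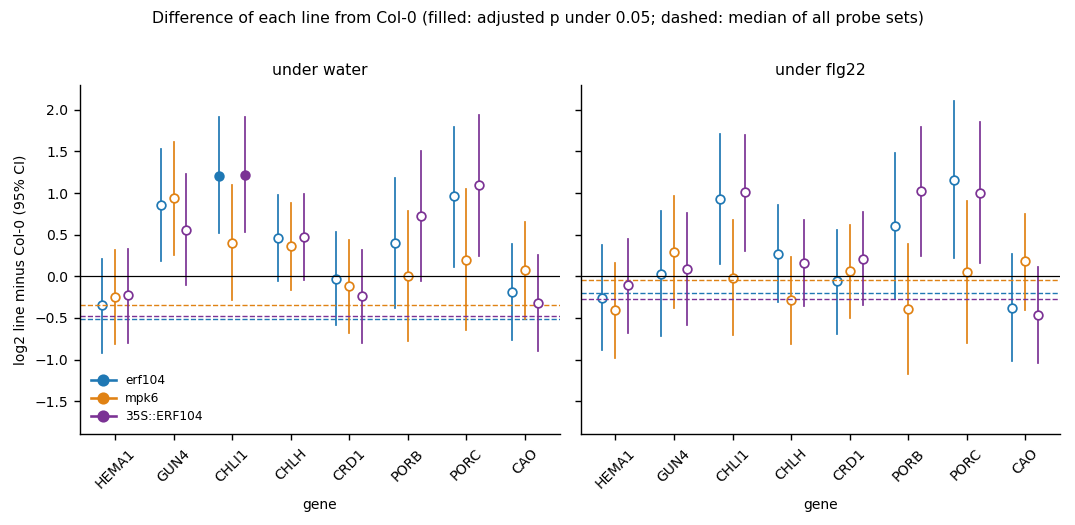
Difference of erf104, mpk6 and 35S::ERF104 from Col-0 for the 8 genes other than PORA (log2, point) with its 95% confidence interval (line), under water (left) and flg22 (right); dashed lines mark the median of all probe sets and filled points passed the adjusted threshold. The 2 filled points are CHLI1 under water in erf104 and 35S::ERF104.

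Under flg22 none of the 9 genes passed against Col-0 by limma in any line, and 2, 0 and 3 genes had an unadjusted p under 0.05 in erf104, mpk6 and 35S::ERF104. Of all probe sets 0.0132%, 0% and 0.44% passed, and without adjustment these shares were 8.78%, 4.93% and 15.1%. In 35S::ERF104 these 3 genes were CHLI1 (1.01 ± 0.337 higher), PORB (1.02 ± 0.379) and PORC (1.00 ± 0.41). In erf104 they were CHLI1 (0.93 ± 0.377) and PORC (1.16 ± 0.459). Without Col-0 flg22 replicate 3, on which CHLI1 and PORC were high for their group, 2 genes passed in 35S::ERF104. Between 35S::ERF104 and erf104, lines at opposite ends of ERF104 expression, none of the 9 passed under water or flg22 by limma, and none had an unadjusted p under 0.05. There 0.022% of all probe sets passed under water and 0.0879% under flg22, against 3.14% and 3.5% without adjustment.

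The 9 genes were next set beside the other genes of the tetrapyrrole pathway, grouped by step, in the mean flg22 response. In that test 12.5% of all probe sets and 30.5% of those called present on every array fell, and 9.16% of all rose. All 7 other genes of the chlorophyll branch fell. CHLM, the methyltransferase that follows magnesium chelatase, changed by -1.29 ± 0.154 on the log2 scale (SE; limma adjusted p = 6.63e-07). CHLP, which makes the phytol tail, changed by -1.08 ± 0.15 (adjusted p = 5.55e-06), CHLI2, the second ATPase subunit gene, by -1.07 ± 0.203 (adjusted p = 0.00028) and YCF54, a partner of the cyclase, by -1.03 ± 0.111 (adjusted p = 1.2e-07). All 11 flg22 arrays lay below all 12 water arrays for YCF54, CHLD and CHLP. Over Col-0 and mpk6 alone 4 of the 7 passed.

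Of the 14 genes for ALA and the porphyrin steps shared with heme, 5 fell and 2 rose, and the median change was -0.29. Beside them 12.5% of all probe sets and 30.5% of the 2085 called present on every array fell. Among all probe sets 9.16% rose, as did 376 of those 2085. FLU, a repressor of ALA synthesis, changed by -0.87 ± 0.248 (limma adjusted p = 0.0113) and GSA2, an ALA-forming aminotransferase, by -0.81 ± 0.139 (adjusted p = 7.78e-05). HEMD and PPOX1, enzymes of later porphyrin steps, each changed by -0.63 (adjusted p = 0.00483 and 4.76e-05). HEMA2, a second glutamyl-tRNA reductase gene, rose by 1.06 ± 0.209 (adjusted p = 0.000455), and GSA1, a second aminotransferase gene, by 0.86 ± 0.149 (adjusted p = 8.93e-05). After centring 2 fell and 2 rose, and over Col-0 and mpk6 alone 0 fell and 1 rose.

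Of the 9 genes for heme, bilins and siroheme, 3 fell and 1 rose. Beside them 12.5% of all probe sets and 30.5% of the 2085 called present on every array fell. Among all probe sets 9.16% rose, as did 376 of those 2085. The plastid heme oxygenase genes HO2 (-0.82 ± 0.188, limma adjusted p = 0.00189) and HY1 (-0.50 ± 0.155, adjusted p = 0.0214) fell, as did the ferrochelatase gene FC2 (-0.71 ± 0.154, adjusted p = 0.00108). The other ferrochelatase gene, FC1, rose by 1.33 ± 0.166 (adjusted p = 1.21e-06), or 2.51-fold. These counts were 1 and 1 after centring, and 0 and 1 over Col-0 and mpk6 alone.

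**Figure D4:**
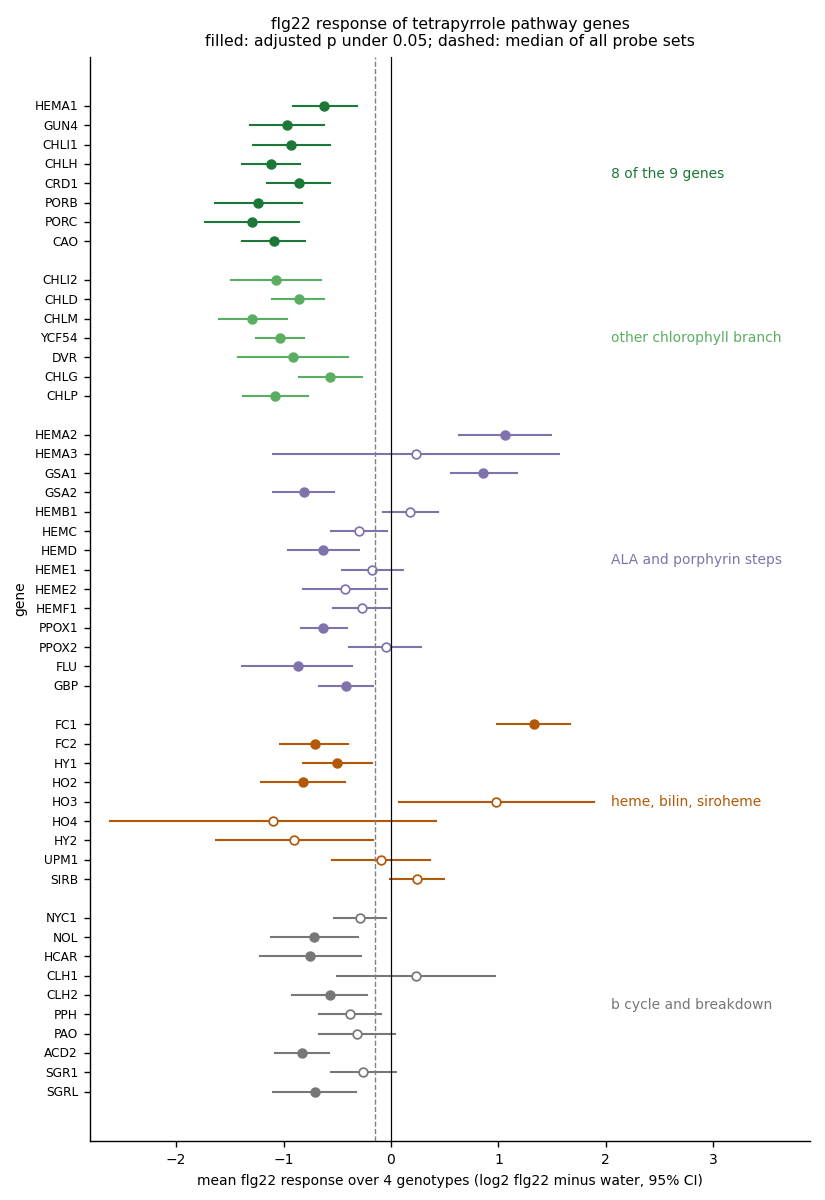
Mean flg22 response over the 4 genotypes (log2 of flg22 minus water, point) with its 95% confidence interval (line) for 8 of the 9 genes (PORA is not drawn) and for other measured genes of the tetrapyrrole pathway, grouped by step; filled points passed the adjusted threshold and the dashed line marks the median of all probe sets (-0.15). Filled points right of 0 are HEMA2, GSA1 and FC1.

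For 3 steps of the pathway 1 gene fell and another gene for the same enzyme rose, a contrast singled out after the values were seen. FC1 signals in Col-0 were 1043, 974 and 355 under water and 2105, 2538 and 1953 under flg22, and in mpk6 they were 1087, 922 and 981 and 2024, 3149 and 2368. In erf104 FC1 read 1778, 1322 and 1793 under water and 2878 and 5069 under flg22, and in 35S::ERF104 it read 1020, 1072 and 1365 and 1882, 2883 and 2937. All flg22 arrays of FC1 lay above all water arrays, and FC1 passed in each genotype, with limma adjusted p between 0.00172 (35S::ERF104) and 0.0489 (Col-0). FC2, by contrast, ran from 1137 to 2582 under water and from 595 to 1829 under flg22.

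GSA1 signals ran from 676 to 2051 under water and from 1727 to 3539 under flg22, with no overlap within any genotype. For this gap above water too, the share of all probe sets is not given. GSA2 ran the other way, from 980.1 to 2281 under water and from 468 to 1400.2 under flg22. It also had no overlap within any genotype, and such a gap below water holds for 2.48% of all probe sets. HEMA2 ran from 223 to 757 under water and from 521 to 1700.2 under flg22 and overlapped in 1 genotype, Col-0. Signals of different probe sets cannot be set against each other, so which gene of a pair is the more abundant is not given by these values.

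**Figure D5:**
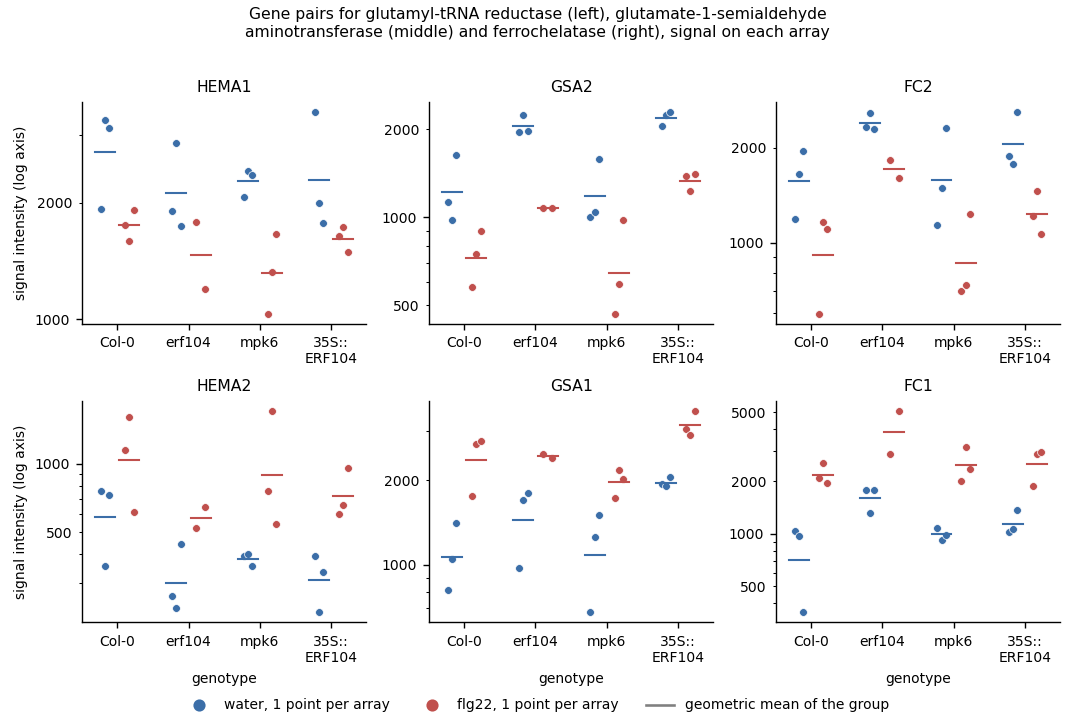
Signal intensity (log axis, a separate range for each gene) on each of the 23 arrays used for gene pairs of the same enzyme, by genotype; blue points are water arrays, red points flg22 arrays and bars the geometric mean of a group. In the upper row (HEMA1, GSA2, FC2) the red bar is below the blue bar in every genotype, and in the lower row (HEMA2, GSA1, FC1) above it.

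Of 11 genes of the chlorophyll b cycle and chlorophyll breakdown, 10 were measured, and 5 fell and 0 rose by limma. The shares that fell were 12.5% of all probe sets and 30.5% of those called present on every array. ACD2, the red chlorophyll catabolite reductase, changed by -0.83 ± 0.122 (limma adjusted p = 1.25e-05). HCAR (-0.75 ± 0.229, adjusted p = 0.0187) and NOL (-0.72 ± 0.196, adjusted p = 0.00864), reductases that turn chlorophyll b back towards a, and SGRL (-0.71 ± 0.187, adjusted p = 0.00631), a relative of the stay-green proteins, also fell. With centred arrays 2 of these genes passed, and over Col-0 and mpk6 alone 1 did.

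Of 13 transcriptional and plastid regulators, 5 fell and 1 rose. Beside them 12.5% of all probe sets and 30.5% of the 2085 called present on every array fell. Among all probe sets 9.16% rose, as did 376 of those 2085. PIF4, a phytochrome-interacting factor, changed by -1.30 ± 0.174 (limma adjusted p = 3.12e-06) and GNC, a GATA factor known to promote chlorophyll accumulation, by -1.29 ± 0.258 (adjusted p = 0.000509). PIF1, known to restrain chlorophyll synthesis in dark-grown seedlings, changed by -1.0 ± 0.303 (adjusted p = 0.018) and GLK2, an activator of chloroplast genes, by -0.47 ± 0.135 (adjusted p = 0.012). FHY3, an activator of light-responsive genes, rose by 0.55 ± 0.186 (adjusted p = 0.0329). Centred on the array medians 2 fell, over Col-0 and mpk6 alone 1 fell and 0 rose, and without the variance trend 0 rose.

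Antenna proteins bind most of the chlorophyll of a leaf. Of 17 antenna genes 13 were measured, and 9 fell and 0 rose by limma, with a median of -0.61. The shares that fell were 12.5% of all probe sets and 30.5% of those called present on every array. LHCB4.2 (-0.84 ± 0.147, limma adjusted p = 0.000112), LHCA1 (-0.72 ± 0.166, adjusted p = 0.00213), LHCB5 (-0.71 ± 0.2, adjusted p = 0.0111) and LHCA4 (-0.70 ± 0.185, adjusted p = 0.00644) had the largest changes. Of the 13, 1 passed after centring, over erf104 and 35S::ERF104 alone 4 and over Col-0 and mpk6 alone 1.

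General mesophyll markers were also read in the mean flg22 response. Of the 7 listed 4 were measured, and RBCS1A (-0.66 ± 0.204, limma adjusted p = 0.0209), RCA (-0.54 ± 0.16, adjusted p = 0.0151) and GAPA (-0.71 ± 0.183, adjusted p = 0.00562) fell. CA1, the carbonic anhydrase gene, did not pass (adjusted p = 0.124). In the same test 12.5% of all probe sets and 30.5% of those called present on every array fell. Centred on the array medians 0 of the 4 fell, over Col-0 and mpk6 alone 0 and with all 24 arrays 1. Over erf104 and 35S::ERF104 alone 2 fell. The summed signal of all 4 was 107900 to 297300 under water and 90960 to 131400 under flg22. None of the 3 guard cell, 3 vascular, 3 trichome and epidermis, 3 root, 3 flower or 3 senescence markers passed in the mean response by limma. At an unadjusted p under 0.05 the trichome and epidermis list and the senescence list held 1 gene each and the other 4 lists 0, while 30.7% of all probe sets had such a p. Whether the fall of these mesophyll marker transcripts and the changes of the 9 genes share a source was not tested.

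Under water the neighbouring pathway genes were also compared with Col-0. In the chlorophyll branch DVR, the divinyl reductase, was higher in erf104 (2.02, limma adjusted p = 0.022) and 35S::ERF104 (2.11, adjusted p = 0.024), and CHLG, the chlorophyll synthase, was higher in both (1.31, adjusted p = 0.0133, and 1.08, adjusted p = 0.0343). Of the ALA and porphyrin genes 2 of 14 were higher in erf104 (HEMC, 1.01, and GBP, 0.88) and 4 of 14 in 35S::ERF104 (HEMC, HEMB1, PPOX1 and HEME2, 0.68 to 1.3), and 0 were lower. Of the 9 heme, bilin and siroheme genes FC1 alone passed, higher in erf104 (1.18, adjusted p = 0.0337). Of the 10 measured breakdown genes, SGR1, a stay-green gene, was lower in erf104 (-0.94, adjusted p = 0.0489) and 35S::ERF104 (-0.96, adjusted p = 0.0476). In 35S::ERF104 the chlorophyllase gene CLH2 was also lower (-1.39, adjusted p = 0.0266) and CLH1 higher (2.3, adjusted p = 0.0497). No antenna gene passed in either line by limma, and 0 in erf104 and 1 in 35S::ERF104 had an unadjusted p under 0.05, against 28.1% and 28.9% of all probe sets. PIF4 was lower in erf104 (-1.35, adjusted p = 0.0261) and 35S::ERF104 (-1.57, adjusted p = 0.0201). The same differences in median signal and flower markers between these lines and Col-0 stand beside these values. Whether these calls hold under the settings that ended the CHLI1 calls is not given here. Among all probe sets 2.75% were higher and 3.55% lower in erf104, and 2.34% and 3.52% in 35S::ERF104. Among the 2085 called present on every array 11.8% were higher in erf104 and 7.24% in 35S::ERF104, while 53 and 28 were lower.

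Across the 23 arrays the 9 genes varied together to different degrees. CHLH had the highest mean correlation with the other members (Pearson r = 0.771 on log2 signals) and PORA the lowest (0.44). CHLI1 and PORC were the closest pair (r = 0.967). The 10 probe sets of other genes with the highest mean correlation to the 9 genes lay between 0.774 and 0.792. In that order they were ELP, AT3G55760, AT2G34460, GAPA-2, PETE1, ESM1, AT1G67700, AT3G05910, AT1G54500 and AT1G60000. All 10 fell in the mean flg22 response, from -0.87 (AT2G34460) to -1.93 (ESM1) on the log2 scale. Because they were picked by correlation over these same water and flg22 arrays, a common fall follows largely from the choice. These correlations describe the 23 arrays, which share treatment, genotype and scaling, and carry no test.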

How the data were processed

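The files hold Affymetrix ATH1 signals of 24 arrays, with groups and replicate numbers taken from the sample titles. The intensity values are the authors' deposited linear signals, 1 per probe set and array, scaled to a mean of about 500 per array once the top and bottom 2% are trimmed. The authors' table, exported from Genespring GX 7.3.1 per the submitters' series text, holds detection calls (present, marginal or absent) per group, a unit of other kind. Its erf104 flg22 group mean matches replicates 1 and 3, and replicate 2 was left out. Signals were taken to log2 with no pseudocount, and 64 control probe sets were left out. The functions lmFit and eBayes (with a variance trend) of limma 3.58.1, under R 4.3.3, tested 22746 probe sets with Benjamini-Hochberg adjustment and a threshold of 0.05. The flg22 response of a genotype was fitted on its own arrays, and every other comparison on 23 arrays. The fits were tested on simulated data. The number of arrays limits the precision.

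The 9 genes and the pathway and marker lists were chosen with earlier results of these data known. From each list up to 4 genes per direction that passed were named, by size of change, and the 10 probe sets most like the 9 genes by mean correlation. Of the 108 listed loci 100 had a probe set. No coordinates or sequences are given, since no source used here names the build. The alternatives tried were all 24 arrays, quantile normalization, centring on the array median, no variance trend, a filter on calls, a pseudocount of 50, replicate number as a block, 1 joint fit, the methods' ANOVA with its 3-fold threshold, leaving out each array, and (added after seeing the data) means over pairs of genotypes.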

Additional observations from a re-analysis of the deposited data

Results flagged for a closer look

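On erf104 flg22 replicate 2, the array used in no comparison, PORA read 549, above the 3 water arrays of erf104 (88.3, 114 and 159.9) and above all other arrays. That array correlated with every other array at 0.25 or less, so the value carries no comparison.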

How the results depend on the processing

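The count of 8 falling genes in the mean flg22 response stayed between 7 and 9 in all 32 alternatives: it was 7 when centred on the array medians and over Col-0 and mpk6 alone, and 8 to 9 when 1 array was left out. GUN4, CHLH, PORB, PORC, CAO and CRD1 passed in all 32, HEMA1 and CHLI1 in 31 each, and none of the 9 changed direction. Counts within genotypes moved more. In Col-0 (0 genes) 1 passed after quantile normalization, 3 with the replicate block and 5 in 1 joint fit of 23 arrays, and 0 to 1 when 1 array was left out. In erf104 (5 genes) the count was 0 with all 24 arrays, 3 when centred, 0 without the variance trend, 2 in the joint fit and 0 to 7 when 1 array was left out. In mpk6 (3 genes) it was 0 when centred, 0 without the trend, 7 with the replicate block and 0 to 5 when 1 array was left out. In 35S::ERF104 (7 genes) it was 4 without the trend, 2 in the joint fit and 5 to 7 when 1 array was left out. The methods' ANOVA, which also asks for a change of more than 3-fold, called 0 of the 9 in each genotype, unadjusted or adjusted. Against Col-0 under water, the count of 1 in erf104 became 0 with all 24 arrays, 0 after quantile normalization, 3 when centred and 0 without the trend. That of 1 in 35S::ERF104 became 0, 0, 2 and 0 in the same order, and each was 0 to 1 when 1 array was left out. For 35S::ERF104 against Col-0 under flg22 it was 0 to 2 when 1 array was left out. The replicate block changed no other count by more than 1.5 times. Same-numbered arrays share only a number: correlations of their deviations from the group means ran from -0.276 to 0.451 and exceeded 0.1 at every number in 0 of 8 pairs of groups with 3 numbers. They were highest between mpk6 water and flg22 (0.058 to 0.361) and between Col-0 and mpk6 under flg22 (0.089 to 0.451), where 4 of 6 arrays correlated best with their own number, a hint from the data and not from the design. In the flg22 responses, centring moved the split of probe sets that rose and fell to 273 and 1 in Col-0 (359 and 63 as deposited), 1181 and 823 in erf104 (992 and 1217), 265 and 91 in mpk6 (494 and 353) and 2256 and 1793 in 35S::ERF104 (1814 and 2363). The causes of these changes were not tested. Signal close to background limits PORA.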
